A study of Mus musculus with 15 samples.

Results

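Of 1544 genomic sites bound by both RevErbalpha and RevErbbeta in mouse macrophages, 264 were intergenic enhancer sites within 30 kb of a gene start. They were chosen by the authors' own columns: the class had to read intergenic enhancer and the distance to the assigned start had to be at most 30000 bp in either direction. Being a common peak rests on the ChIP-seq signal of both RevErbs, and the class rests on H3K4me1 and H3K4me3, but no 5'GRO-seq or GRO-seq value entered the choice. All 264 sites were in their separately deposited list of intergenic enhancers. Binding was read by ChIP-seq on streptavidin beads in RAW macrophages, a mouse macrophage line. The labels give its strain as C57Bl6, which was not checked here. The 3 RAW cell groups expressed RevErbalpha with a biotinylated tag (BLRP), expressed RevErbbeta with that tag, or were control cells labelled BirA, after the enzyme that attaches biotin. Capped nascent RNA was read by 5'GRO-seq in control RAW cells (BTEV-Ctrl) and in RAW cells with tagged RevErbalpha. Nascent RNA was read by GRO-seq in C57Bl6 bone marrow derived macrophages whose RevErbalpha and RevErbbeta alleles were both flox/flox. They either lacked Cre (labelled WT) or carried Tie2-Cre (labelled DKO), and every allele of the WT cells was floxed too. Tie2-Cre is active in endothelial cells and in the blood lineages, so the deletion was not limited to macrophages.

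RevErbalpha and RevErbbeta are nuclear receptors that repress transcription by bringing in the NCoR corepressor and histone deacetylase HDAC3, and they are part of the feedback loop of the circadian clock. Active enhancers are themselves transcribed into short capped RNAs, and 5'GRO-seq reads where those RNAs begin. In macrophages many enhancers are opened by PU.1, an ETS family factor whose core motif is GGAA, together with AP-1 and C/EBP proteins.

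The genes assigned to the sites included 11 whose GRO-seq signal was higher in DKO cells by the rule given further on, and 7 of them had an entry in the RefSeq promoter table of build GRCm38.p6. The 250 bases before the start are shown for the 3 of these with the largest differences, Nr1d1, Cx3cr1 and Arntl, because their enhancer sites recur through the results. Capitals mark GGAA on either strand, so TTCC where it lies on the other strand. The Nr1d1 stretch is chr11:98775378-98775627 on the minus strand, that of Cx3cr1 is chr9:120068297-120068546 on the minus strand, and that of Arntl is chr7:113207215-113207464 on the plus strand.
Nr1d1: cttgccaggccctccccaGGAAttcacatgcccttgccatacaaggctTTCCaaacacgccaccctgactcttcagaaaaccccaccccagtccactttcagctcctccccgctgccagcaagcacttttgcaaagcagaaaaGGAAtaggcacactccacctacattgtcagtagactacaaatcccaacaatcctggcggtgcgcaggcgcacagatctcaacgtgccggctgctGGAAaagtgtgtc
Cx3cr1: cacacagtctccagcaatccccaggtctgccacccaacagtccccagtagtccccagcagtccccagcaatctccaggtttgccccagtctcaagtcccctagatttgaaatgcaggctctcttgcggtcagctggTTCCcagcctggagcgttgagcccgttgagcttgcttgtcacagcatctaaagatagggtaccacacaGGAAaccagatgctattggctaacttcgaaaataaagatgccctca
Arntl: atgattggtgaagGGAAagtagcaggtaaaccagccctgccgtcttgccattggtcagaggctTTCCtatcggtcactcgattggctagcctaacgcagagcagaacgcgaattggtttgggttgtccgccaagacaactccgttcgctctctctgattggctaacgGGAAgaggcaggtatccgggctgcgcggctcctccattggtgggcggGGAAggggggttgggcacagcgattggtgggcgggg
The stretches held 4, 2 and 4 copies of GGAA, a motif found in 95.9% of the 27025 promoters of the table (250 bases before to 50 after each start, both strands) and in 96.2% of the 184 promoters that belonged to genes of the sites. None of the 3 held AGGTCA, the core element of nuclear receptors, which 16% of all promoters and 9.78% of the 184 contained. The Nr1d1 stretch also held the C/EBP letters TTGCNNAA on the minus strand, 124 bases before the start, against 10.8% of all promoters. Sequences of the enhancer sites themselves were not analysed here, and their positions are on build mm9.

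Groups consisted of 1 sample each, so differences between conditions could not be checked against replicates and carry no p-values. ChIP-seq came as 3 runs per RevErb and gene-level GRO-seq as 2 runs per genotype. The header of the table also lists libraries named for KLA and for serum shock, and whether any run used here was treated is not given in the sources used here. The runs of RevErbalpha held 598490 to 5276592 tags and those of RevErbbeta 780281 to 4888686. A typical site (the median) thus held some 17, 4.11 and 3.33 RevErbalpha tags by run, and 16.5, 37.8 and 3.3 RevErbbeta tags. The 5'GRO-seq libraries held 18708148 tags in control cells and 7238710 in tagged cells, or about 159 and 52.0 tags at the median site. Of 15 macrophage markers 8 were assigned to a common peak, and their GRO-seq levels in the BMDM runs ranged from 4.58 to 12.6. Of 7 endothelial markers only Vwf was, at 9.62 to 9.82, and its part in the results was not tested.

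The sites were spread over all 20 chromosomes that held a common peak and lay on both sides of their genes, mostly in front of them. Of the 264, 209 were upstream of the assigned start (79.2%) and 55 downstream, in a class that leaves out genic sites. Among genic enhancer sites within 30 kb 23.9% were upstream. The median distance was 11282 bp and the range 1065 to 29947 bp, with 52 sites within 5000 bp and 119 within 10000 bp. Another common peak lay within 50 kb of 124 sites (47.0%), against 35.4% of all common peaks. At the 30 kb limit, the last sites inside were those of Cxcl16 at -29947 bp, Rps14 at -29810 bp and A4galt at 29809 bp (negative is upstream), and the first outside were those of Pf4 at -30182 bp, Gm3230 at 30652 bp and Cx3cr1 at 30691 bp. The sites were assigned to 234 genes, of which 207 had 1 site, 24 had 2 and 3 had 3.

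Both RevErbs bound these sites at similar levels. The sites are peaks of both proteins, so signal from each above the background was part of the selection and is given as a description. Median binding was 5.44 for RevErbalpha and 5.64 for RevErbbeta, each the mean of 3 runs in log2 tags per 10000000 in the peak, against 0.995 for BirA. All 6 runs stood above BirA at 256 of the 264 sites, although 120 of the BirA values were under 1 tag. Intergenic enhancer sites beyond 30 kb had medians of 5.52 and 5.70, and all common peaks 5.45 and 5.68, so binding here was near that of the series. RevErbbeta was the higher of the pair at 170 of the 264 sites and at 1020 of the 1544 common peaks. The median of RevErbbeta minus RevErbalpha was 0.28 over all 264 sites and 0.285 over all common peaks. All RevErbbeta runs exceeded all RevErbalpha runs at 24 sites (9.09%). The reverse held at 3 sites (1.14%), those of Stoml1, Rhob and Gadd45b. The same shares of all common peaks were not computed, so these counts are a description only. The levels of the proteins went together across the sites (Spearman correlation 0.66, n = 264, as a description over sites that share the same libraries).

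The most strongly bound site lay at chr2:164768385-164768541, 5288 bp upstream of Mmp9, the gelatinase that macrophages secrete to break down extracellular matrix. Its RevErbalpha runs read 8.30, 9.51 and 9.71, its RevErbbeta runs 9.41, 8.92 and 8.82, and BirA 2.09. The runs of the proteins overlapped, and the site was named because its binding was the highest. The site 9108 bp upstream of Hmga1, which encodes an architectural chromatin protein, followed with RevErbalpha at 8.18, 8.52 and 8.72 and RevErbbeta at 8.42, 9.37 and 8.54. Next came the site 27804 bp downstream of Kansl2, a subunit of the NSL histone acetyltransferase complex, with RevErbalpha at 7.62, 9.05 and 7.92 and RevErbbeta at 10.1, 8.03 and 8.95. The other members of the top 10 were assigned to AI467606, Cmtm6, Cnot6 (a deadenylase of the CCR4-NOT complex), Elmo2 (an adaptor for engulfment of dead cells), Ier5, Nlrp3 and Hnrnpa0. At the Elmo2 site the deepest RevErbalpha run read 5.58 against 8.17 and 8.68 in the shallow runs, the widest spread of the 10. The plot of binding by run shows these sites.

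**Figure D1:**
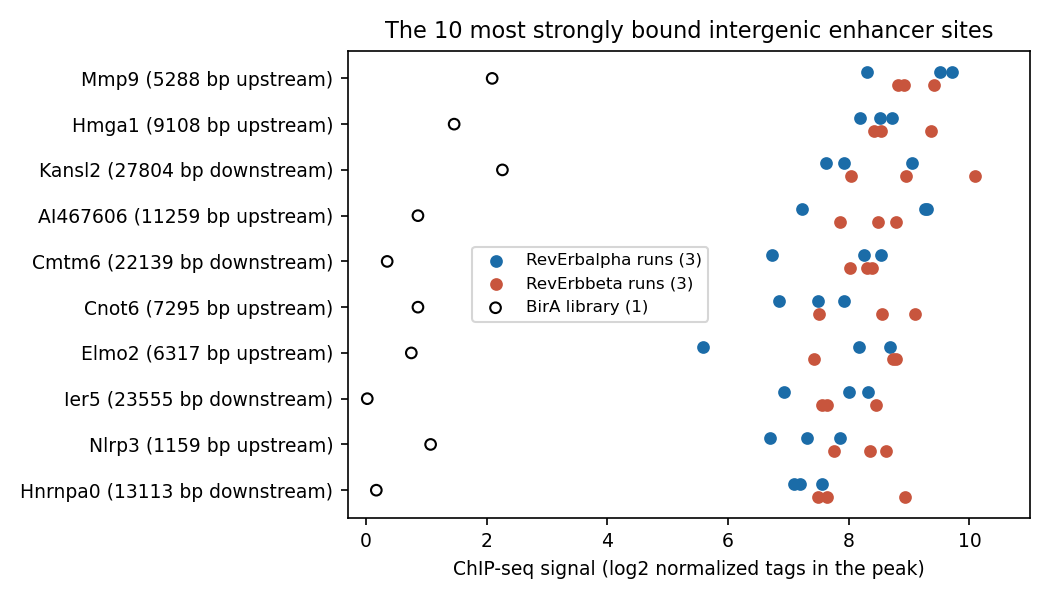
ChIP-seq signal (log2 normalized tags in the peak, horizontal axis) at the 10 sites with the highest mean binding, 1 row per site, with 3 points per RevErb for its runs and an open circle for the single BirA library. All RevErb runs lie above BirA at these sites, whose BirA values stay at or under 2.26.

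Transcription starting at these enhancers was slightly lower at most sites in RAW cells with tagged RevErbalpha, to the same extent as at all common peaks. The median 5'GRO-seq level, in log2 tags per 10000000 within 500 bp, was 6.43 in control cells and 6.19 in tagged cells. The difference, tagged minus control, had a median of -0.205 (interquartile range -0.76 to 0.27) and was below 0 at 163 sites and above 0 at 100. All common peaks shifted by -0.23, so against that shift the median of the sites was 0.025, on the other side of 0. With a difference of 1 or more on the log2 scale taken as the limit, 53 of 264 sites were lower (20.1%, exact Clopper-Pearson 95% interval 15.4 to 25.4%, counting error only), against 20.0% of all common peaks. Higher were 13 sites (4.92%), the same share as the 4.92% of all common peaks. Adding 10 tags per 10000000 before the logarithm left 32 lower and 8 higher. Genic enhancer sites within 30 kb had a median of -0.35, with 26.2% lower, and intergenic sites beyond 30 kb had -0.205, with 14.4% lower.

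**Figure D2:**
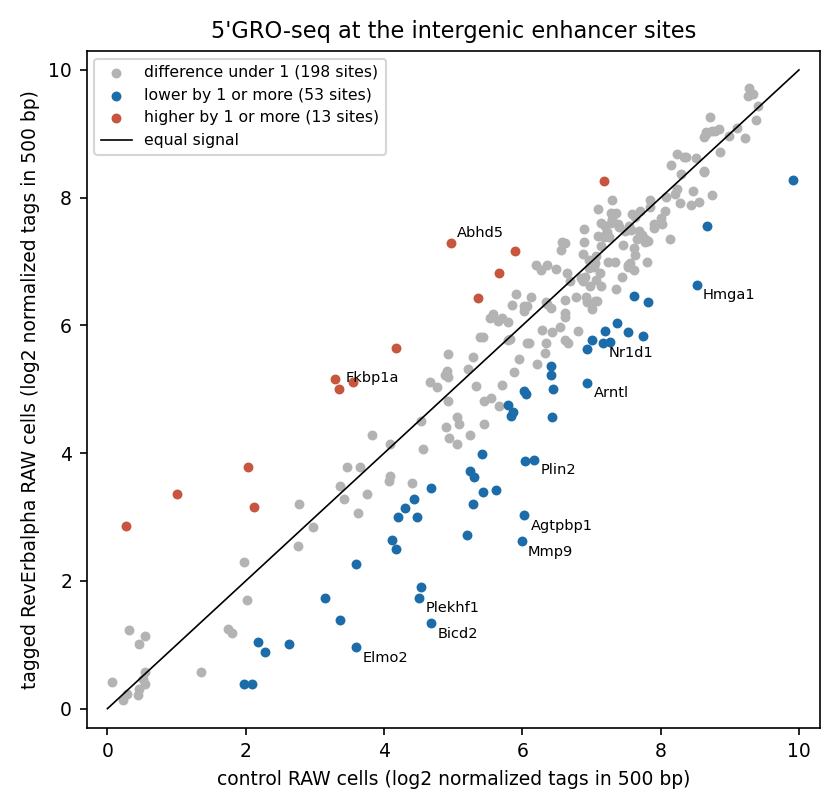
5'GRO-seq signal at the 264 sites (log2 normalized tags in 500 bp) in control RAW cells (horizontal) and in RAW cells with tagged RevErbalpha (vertical), 1 point per site and 1 library per axis, with the line of equal signal. Blue marks the 53 sites lower by 1 or more and red the 13 higher by 1 or more, and most sites lie close to the line.

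The Mmp9 site, first in binding, also had the most negative difference. It read 5.99 in control cells and 2.62 in tagged cells, a difference of -3.37 that stood on about 117 and 3.7 tags. The site at chr13:49421781-49421937, 15059 bp upstream of Bicd2, an adaptor of the dynein motor, read 4.68 and 1.34. Its difference of -3.34 rested on about 1.1 tags in tagged cells, and its binding ranked only 182 of 264. The site 1712 bp upstream of Agtpbp1, a carboxypeptidase that trims tubulin tails, read 6.03 and 3.03, and a neighbouring site of Agtpbp1 5339 bp upstream read 5.88 and 5.27. Thus sites of 1 gene could stand far apart. The Plekhf1 site read 4.51 and 1.74, and the Hnrnpa0 site 4.54 and 1.91, each with about 2 tags or fewer in tagged cells. The sites of Ptges, Plin2, Mettl27, Gpr35 and Kyat1 completed the 10 lowest among the 226 sites that reached 4 in the higher library, with differences of -2.48, -2.27, -2.19, -2.17 and -2.07.

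A smaller set of sites read higher in tagged cells, and the 10 described are the highest among those same 226. Less transcribed sites outside them, such as that of Elmo2 at -2.64 and a site of Il1a at 2.59, also lay far from 0. The site at chr9:122246646-122246802, 14010 bp upstream of Abhd5, an activator of triglyceride lipase, read 4.97 in control and 7.29 in tagged cells. Its difference of 2.32 stood on about 56.8 and 113 tags. Sites of the small nucleolar RNA Snord12, of Fkbp1a (an immunophilin), of the non-coding gene E230029C05Rik and of the small GTPase gene Rhoq followed, with differences of 1.87, 1.66, 1.56 and 1.47. Those of Ptgs1 (cyclooxygenase), Rhob, Kif13b and Rps14 differed by 1.27, 1.16, 1.08 and 1.07, and that of Serpinb8 by 0.75. Of these 10 only the Fkbp1a and Rps14 sites were among the 66 most strongly bound. The Rps14 site was at 0.93, under the limit, with 10 tags per 10000000 added.

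Lower 5'GRO-seq signal was found most often at the strongly bound sites. When the 264 were cut into 4 equal bins by mean binding of both RevErbs, 29 of the 66 strongest were lower by 1 or more (43.9%), then 10 (15.2%), 9 (13.6%) and 5 of the 66 weakest (7.58%). The median difference went from -0.68 in the strongest bin through -0.31 to 0.06 and 0.01. Of the 66 strongest sites 53 were below 0, of the 66 weakest 32. Control levels were lower where binding was strong, with a median of 6.10 in the strongest bin and 6.61 in the weakest. Sites with a low control level passed the limit more often, as given further on, and the part of the control level was not tested. The Spearman correlation between binding and the difference was -0.34 over the 264 sites and -0.24 over all 1544 peaks, as a description of sites that share the same 5'GRO-seq libraries. It was -0.38 with RevErbbeta alone and -0.26 with RevErbalpha, the protein that the tagged cells expressed. The runs differed in depth, with a median of 16.5, 37.8 and 3.3 tags for RevErbbeta and 17, 4.11 and 3.33 for RevErbalpha. The part of depth in these correlations was not tested. Adding 10 tags per 10000000 left 19 lower sites in the strongest bin in place of 29. At the same binding level 32.7% of the 315 other common peaks were lower, among them 40.4% of 94 genic enhancer sites within 30 kb and 25.4% of 71 intergenic sites beyond 30 kb. The median difference was -0.825 at these genic sites and -0.48 at these intergenic sites beyond 30 kb, beside -0.68 in the strongest bin. The difference between the classes was not tested.

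**Figure D3:**
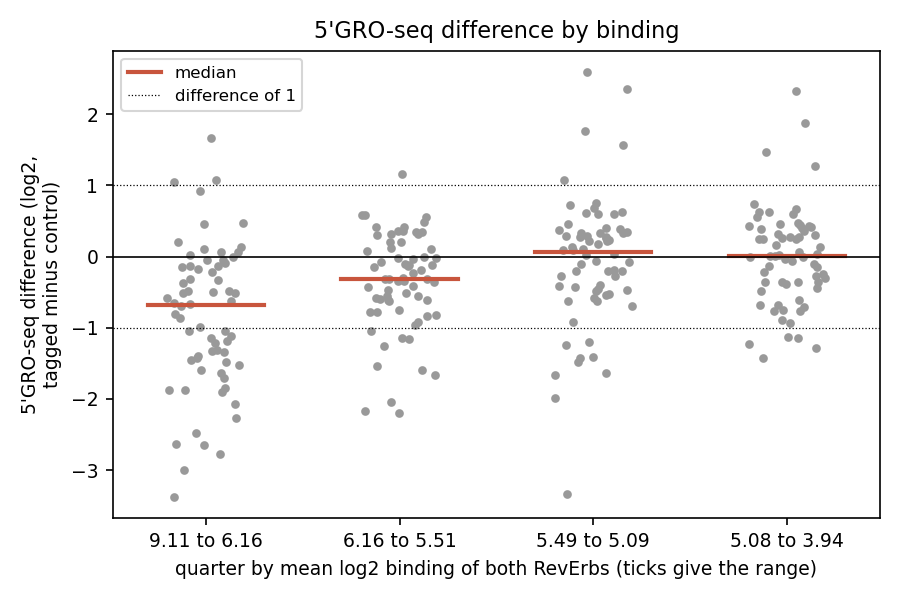
5'GRO-seq difference (log2, tagged RevErbalpha minus control, vertical axis) of the 264 sites in 4 equal bins by mean log2 binding of both RevErbs (strongest on the left, 66 sites each), 1 point per site with random sideways spread, the median as a red line and dotted lines at differences of 1 in size. The median is -0.68 in the strongest bin and 0.01 in the weakest.

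Distance from the gene showed no such order. Within 5000 bp of the start 9 of 52 sites were lower by 1 or more, from there to 10000 bp 17 of 67, to 20000 bp 12 of 73 and to 30000 bp 15 of 72. The medians of these bins were -0.29, -0.21, -0.03 and -0.395. Upstream sites were lower in 41 of 209 cases and downstream sites in 12 of 55. Sites with little transcription passed the limit more often: 19 of the 66 sites with the lowest control level were lower and 8 higher, against 7 and 0 of the 66 with the highest. Fewer tags lie behind those values, and the part of depth in the counts was not tested.

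Among the listed pathways, 61 sites were assigned to 51 of 367 listed genes. Extracellular proteases and their inhibitors were the list with the most genes, 10 of 30 with 12 sites. Of these sites 4 were lower by 1 or more and 1 higher, and the median difference of -0.285 was near the -0.23 of all common peaks. Besides Mmp9, the lower ones included sites of Tgm2, a protein cross-linking transglutaminase (3.37 in control and 1.39 in tagged cells), and of Mmp14, a membrane-bound matrix metalloproteinase (2.18 and 1.04). The Mmp14 value in tagged cells was under 1 tag. The higher one was a site of Plaur, the urokinase receptor, with 2.12 and 3.16, or about 6.3 and 5.7 tags. The sites of the cathepsin genes Ctsd, Ctsk and Ctss read -0.58, 0.09 and 0.21 in the difference, inside the limit.

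Of 24 clock genes 4 had a site, and 2 of the 4 sites were lower, beside 20.1% of all 264. The Arntl site at chr7:120329622-120329778 lay 21279 bp upstream of the gene, which encodes the activator BMAL1 that RevErbs repress. It read 6.94 in control and 5.10 in tagged cells, a difference of -1.84 on about 228 and 24.1 tags. Binding there was 5.08, 6.75 and 6.94 in the RevErbalpha runs and 5.72, 6.90 and 5.93 in the RevErbbeta runs, so the proteins overlapped. The Nr1d1 site at chr11:98644796-98644952 lay 8318 bp upstream of the gene of RevErbalpha itself and read 7.16 and 5.73, a difference of -1.43. Its binding was moderate, with RevErbalpha at 5.72, 4.85 and 5.45 and RevErbbeta at 5.65, 6.26 and 4.70. The site of Per1, a repressor of the clock, read 5.09 and 4.46, and that of Bhlhe40, a repressor that competes at E-boxes, read 5.43 and 5.82. Both stayed inside the limit.

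Genes of inflammatory signalling had several of the sites. Of 51 chemokine, cytokine and receptor genes 8 had 11 sites, with a median difference of -0.62, 3 lower and 1 higher. Of all common peaks 20.0% were lower and 4.92% higher, with a median of -0.23, and the difference was not tested. The lower ones were a site of Pdgfb, a growth factor (6.43 in control and 4.56 in tagged cells), the site of the chemokine gene Ccl3 (7.20 and 5.91) and that of the receptor gene Tgfbr1 (6.02 and 4.98). The higher one, a site of the cytokine gene Il1a, read 0.27 and 2.86, or about 0.4 and 4.5 tags. Of 41 pattern recognition and inflammasome genes 3 had a site. The site 1159 bp upstream of Nlrp3, the inflammasome sensor, read 7.37 and 6.03, those of the adaptor gene Myd88 7.08 and 6.38, and of the receptor gene Tlr2 7.28 and 7.76. Only the Nlrp3 site passed the limit, and it was also the ninth strongest in binding.

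Lipid handling contributed 6 sites at 5 of 44 genes, whose values went both ways around a median of 0.105. The site 1959 bp upstream of Plin2, the coat protein of lipid droplets, read 6.17 in control and 3.90 in tagged cells. The site 22142 bp upstream of Ptges, which makes prostaglandin E, read 5.20 and 2.72. In contrast, the site of Ptgs1, which acts one step before it, read 5.89 and 7.16. The 2 sites of the cholesterol exporter gene Abcg1 and the site of Alox5ap, a helper of leukotriene synthesis, stayed between -0.06 and 0.42.

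Of 50 listed macrophage transcription factors 9 had a site, with differences from -1.64 to 0.68 and a median of -0.03. Only the Klf6 site, with 7.53 in control and 5.89 in tagged cells, passed the limit. The sites of Irf8 and Egr1 were at -0.68 and -0.63, and those of Fos, Fosb, Klf2, Runx1, Nr4a1 and Bhlhe40 lay between -0.20 and 0.68. Signalling and cytoskeleton genes had 12 sites at 9 of 48 genes, with a median of -0.055. Of these, sites of Spry1 and Dusp1, both inhibitors of MAP kinase signalling, were lower at -1.40 and -1.23, and that of Rhob was higher. The Spry1 site held about 7.2 tags in control and 0.6 in tagged cells, and the Dusp1 site about 46.1 and 7.2. The 3 sites of the cofactor genes Irf2bp2 and Ncoa3 lay between -0.28 and 0.03. In the surface list the Fcgr1 site, of an antibody receptor, was at 0.67, within the limit. The plot of differences by list shows each site.

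**Figure D4:**
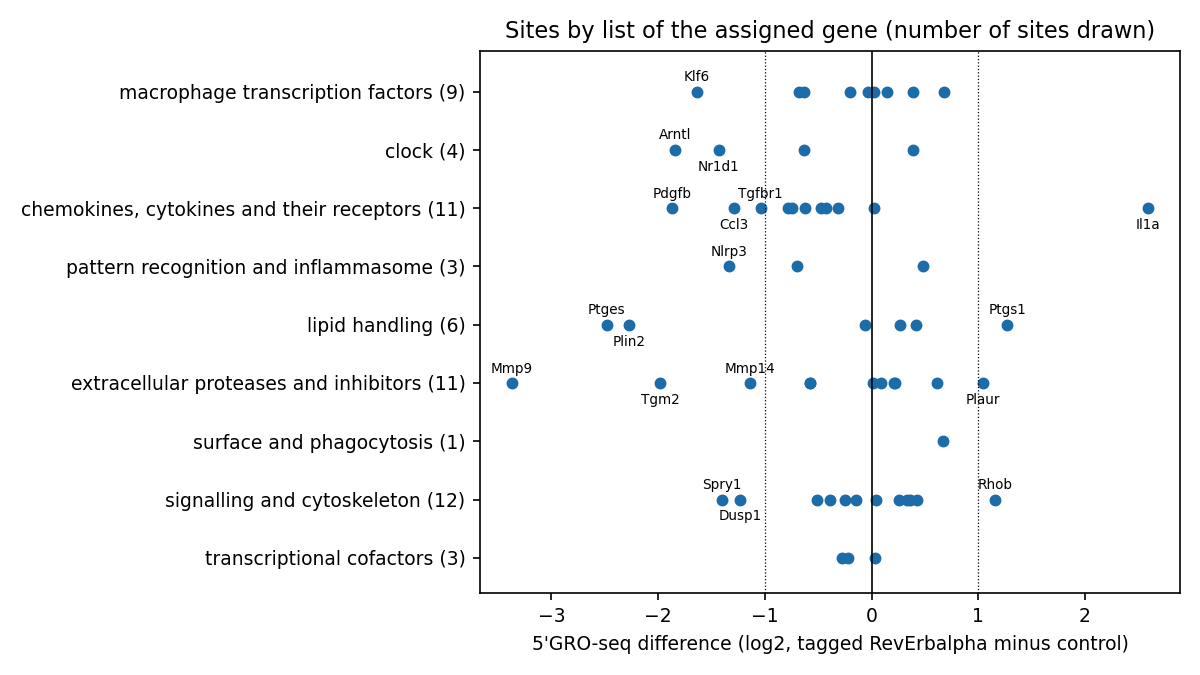
5'GRO-seq difference (log2, tagged RevErbalpha minus control, horizontal axis) of the sites assigned to genes of 9 lists, 1 point per site, with the number of sites drawn in brackets (1 protease site is not drawn), a solid line at 0 and dotted lines at differences of 1 in size. Sites past the limit carry their gene, from Mmp9 at -3.37 to Il1a at 2.59.

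Sites of the same gene did not always differ in the same direction. By symbol 27 genes had 2 or more of the sites, 57 in all, and at 16 of the 27 all sites had the same sign. The median range within a gene was 0.45. Tgm2 had 3 sites with differences of -0.58, 0.22 and -1.98, the last pair of them neighbours at 28261 and 29208 bp upstream. Mapkapk2, a kinase downstream of p38, had 3 sites at -0.14, 0.21 and -1.48, and Dusp1 had 3 at 0.26, -1.23 and -0.25. The widest range, 3.37, was between the 2 sites of Il1a and rests on fewer than 5 tags in every library. Cxcl16, Itpkb and Ier5 had pairs of sites within 0.31, 0.12 and 0.05 of each other.

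Nascent RNA at the sites differed little between WT and DKO macrophages. The median GRO-seq level was 3.29 in WT and 3.45 in DKO, and the difference, DKO minus WT, had a median of 0.07, with 144 sites above 0 and 119 below. All common peaks had a median of 0.03. At a limit of 1, 12 sites were higher (4.55%, against 3.37% of all common peaks) and 11 lower (4.17%, against 2.20%). Of these, 7 and 2 had a level of at least 3 in the higher genotype, and with 10 added before the logarithm no site passed in either direction. Tag counts were not given for these columns, so their counting error is unknown.

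Among sites with a level of at least 3, the most positive were those of Elmo2 (1.99 in WT and 3.68 in DKO) and Kansl2 (1.62 and 3.30), both also in the top 10 by binding. The Cx3cr1 site at chr9:119952428-119952584, 24894 bp downstream of the start of the fractalkine receptor gene, read 2.82 and 4.22. Its mean binding of 4.51 ranked only 246 of 264, and its RevErbbeta run 3 read 0.61, under BirA at 1.14. The Cx3cr1 site just outside the limit, at 30691 bp, had a mean binding of 7.65 and read 4.195 in WT and 5.58 in DKO. Which of these sites acts on the gene was not tested. The site of Egr3, an immediate early transcription factor, read 2.77 and 4.0, and that of Plin2 2.50 and 3.69. The most negative were the sites of Soga1 (3.01 and 1.87), Hmga1 (3.61 and 2.58) and Iqgap1, a scaffold of the actin cytoskeleton (3.31 and 2.54), then A4galt and Nek6 at -0.71 and -0.66. Below that level the Tgm2 site 20387 bp upstream had the most positive difference of all, with 0.60 in WT and 2.37 in DKO. The Hmga1 site was lower in DKO macrophages as well as in tagged RAW cells, while the Elmo2 and Plin2 sites were lower in tagged cells and higher in DKO. Over the 264 sites the differences had a Spearman correlation of 0.04, from different cells and libraries.

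The genes assigned to the sites read slightly higher in DKO macrophages, by a median of 0.09 against 0.035 for all 1220 assigned genes. Of the 234 genes 159 were above 0 and 70 below. A gene was called when the genotypes differed by 0.5 or more and their runs did not overlap. By that rule 11 were higher (4.70%, exact 95% interval 2.37 to 8.26%), against 1.97% of all assigned genes, and 2 were lower (0.855%), against 0.738%. For intergenic sites beyond 30 kb the shares were 1.68% and 0%, and for genic sites within 30 kb 2.27% and 0.85%. Some genes belong to more than one class, and the difference between classes was not tested. Without regard to size, the runs of 53 genes did not overlap in the higher direction (22.6%, against 18.4%) and of 18 in the lower (7.69%, against 10.0%). Leaving out a run loosened the rule: 21 genes were higher without WT run 1, 17 without WT run 2, 23 without DKO run 1 and 15 without DKO run 2. Above the lower quartile of gene level there were 3 of the 11.

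Nr1d1 had the largest difference. WT runs read 7.91 and 7.48 on the log2 scale and DKO runs 9.44 and 9.56, a difference of 1.81. The runs stood well apart. Nr1d1 is also a targeted gene, and the deposited value does not tell which of its exons the tags came from, so it does not check the deletion. Nr1d2 was not analysed here. Arntl read 10.17 and 10.31 in WT and 11.37 and 11.25 in DKO, a difference of 1.07, with both pairs of runs close together. Cx3cr1, the fractalkine receptor of monocytes and macrophages, read 8.19 and 9.16 in WT and 10.24 and 10.40 in DKO. Its WT runs lay apart from each other, yet both were below DKO by more than 1.

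Mmp9 read 7.71 and 6.07 in WT and 7.82 and 8.36 in DKO. Its difference of 1.20 came largely from the low second WT run and was 0.38 without it, under the rule. Ptges read 4.20 and 4.46 in WT and 5.10 and 5.59 in DKO, a difference of 1.02. E230029C05Rik read 7.17 and 6.81 against 7.88 and 7.76, and Egr3 3.91 and 4.09 against 4.51 and 4.98. These 3 kept the call without any single run, as did Nr1d1, Arntl and Cx3cr1. Oacyl, Cd300e (a receptor of the CD300 family on myeloid cells), Phlda1 and Plpp2, a lipid phosphatase, differed by 0.72, 0.66, 0.51 and 0.50, and each fell short of 0.5 without one of the runs, at the lowest 0.46, 0.35, 0.31 and 0.21. Both lower genes lost the call in the same way. Mif, a cytokine, read 5.19 and 5.33 in WT and 3.47 and 4.99 in DKO, and its -1.03 was -0.27 without DKO run 1. Kyat1, an aminotransferase of the kynurenine pathway, read 7.35 and 6.66 against 6.47 and 6.47, and its -0.54 was -0.19 without WT run 1.

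By list, the called genes were 2 of the 4 clock genes with a site (Nr1d1 and Arntl, with a list median of 0.64), 1 of 8 among chemokines, cytokines and receptors (Cx3cr1, median 0.0975), 1 of 10 proteases (Mmp9, 0.1925) and 1 of 5 lipid genes (Ptges, 0.125). None of the 9 macrophage transcription factors (median 0.10), the 9 signalling genes (0.14) or the 3 pattern recognition genes (0.175) was called. Of all 234 genes 4.70% were called higher, and of all 1220 assigned genes 1.97%. Nr1d1 is itself a targeted gene, and differences between lists were not tested. Nlrp3, whose enhancer site was strongly bound and lower in tagged cells, had a gene difference of 0.175, and that of Plin2 was 0.435.

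**Figure D5:**
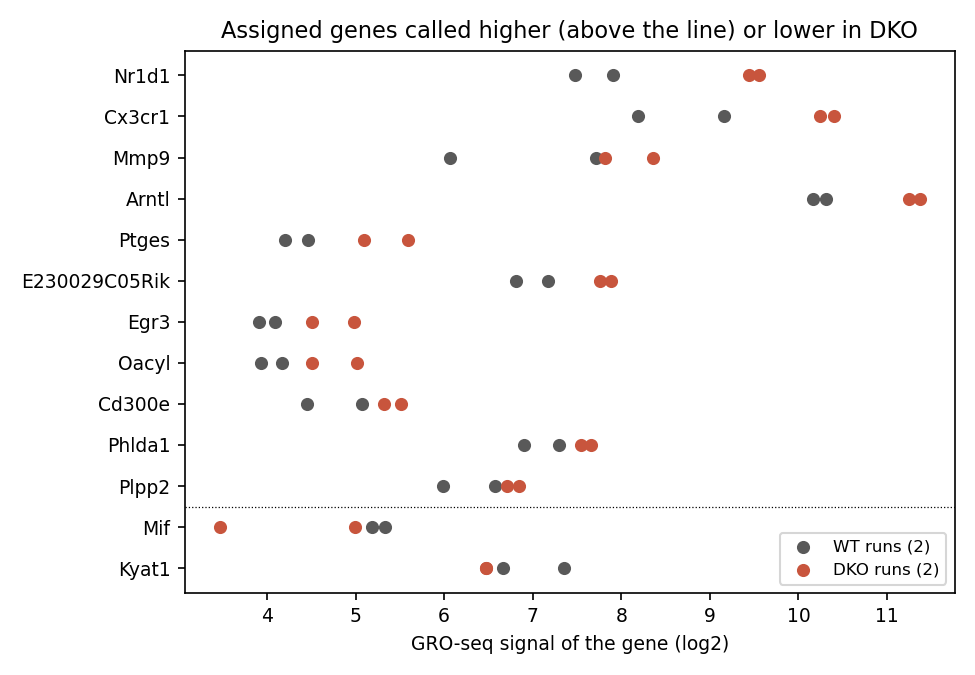
Gene-level GRO-seq signal (log2, horizontal axis) of the 13 called genes, 1 row per gene, with 2 points per genotype for its runs. The nearest WT and DKO runs are far apart at Nr1d1, Cx3cr1 and Arntl. They are close together at Mmp9, Plpp2, Mif and Kyat1, where a single run that lies away from the others largely sets the difference. At Cd300e they are also close, at 5.07 and 5.32, and at Phlda1, at 7.3 and 7.55.

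The enhancer sites of the 11 higher genes, 12 in number, were set beside their genes. GRO-seq at the site was above 0 in DKO minus WT at 10 of the 12, against 144 of all 264, with the same WT and DKO samples behind site and gene. The exceptions were Ptges at -1.18 and Plpp2 at -0.33. At 7 of the 12 the 5'GRO-seq difference in tagged RAW cells was below 0, against 163 of all 264. It was lower by 1 or more at 4, against 53 of all 264, those of Mmp9, Ptges, Arntl and Nr1d1, and higher at 1 site of E230029C05Rik. The Cx3cr1, Egr3 and Plpp2 sites were at -0.75, -0.75 and -0.92, and those of Phlda1, Cd300e and Oacyl at 0.72, 0.36 and 0.31. Seen from the other side, of the 53 sites lower in tagged cells 4 belonged to a gene higher in DKO and 1, that of Kyat1, to a gene lower in DKO, beside 11 and 2 of all 234 genes. The genes of the 53 had a median difference of 0.08 and 33 were above 0, near the values of all 234. Genes without a call, like most of the 234, included Hmga1 (8.68 and 8.80 in WT, 8.68 and 8.98 in DKO), Bicd2 and Agtpbp1, whose differences were -0.015 and 0.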

How the data were processed

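ChIP-seq, 5'GRO-seq and GRO-seq values at 1544 common peaks were taken from the authors' deposited summary table. Per the submitters' processing notes the build was mm9 and the tools included Bowtie 0.12.7 and HOMER. How peaks were called and histone marks thresholded is not given in the sources used here. The deposited values are log2, scaled to 10000000 tags in 157 bp (ChIP-seq) or 500 bp (5'GRO-seq), per the file headers, and low values carry a random part of up to 1 tag. The scaling of GRO-seq is not given in the sources used here. BirA values come from a deposited column whose name, BirA-input, could also mean an input library. Class, distance and gene are the authors'. Of 264 sites 259 had an ID that matched a RefSeq symbol.

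Runs were averaged on the log2 scale as 1 sample. Sites were called at a difference of 1, genes at 0.5 with runs of the genotypes not overlapping. Approximate tags were recovered from the log2 value and the library total. Binding averages RevErbalpha and RevErbbeta. Intervals are exact Clopper-Pearson 95% intervals (scipy 1.17.1, pandas 2.3.3, Python 3.11.15). The error rate of the call rules near their limits was not tested. Members, lists and rules were chosen with earlier results of these data known. Sites named were the 10 strongest in binding, the 10 lowest and 10 highest in 5'GRO-seq (higher library at least 4), the 5 highest and lowest in GRO-seq (higher genotype at least 3), called genes, genes with 3 sites, listed genes and the 3 sites on each side of 30 kb. The Stoml1 and Gadd45b sites were named after their values were seen. None of the B and T lymphocyte, neutrophil, fibroblast or hepatocyte markers was assigned to a common peak. Alternatives were other pseudocounts, limits, distances, centring and leaving out runs. Sites of a few genes, and with them the housekeeping list, are not reported here.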

Additional observations from a re-analysis of the deposited data

How the results depend on the processing

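Of the alternatives to the main counts, medians and binding levels, 49 values stayed within a margin, 22 moved beyond it and 1 changed sign, and of those for single sites and genes 91 stayed and 12 fell under the limit. The margin was 1.5 times for counts, and for medians 1 SD between runs or, without runs, the 95% binomial interval of the median over sites. The causes were not tested. The 5'GRO-seq median of -0.205 became 0.025 when centred on all peaks, with 41 sites lower and 14 higher in place of 53 and 13. With 10 added before the logarithm 32 and 8 passed, and at a limit of 0.58 87 and 28 did. Among the 66 most strongly bound sites 19 in place of 29 were lower with 10 added, an alternative chosen after seeing the data. GRO-seq at sites, 12 higher and 11 lower, gave 0 and 0 with 10 added, 7 and 2 among sites at 3 or more, and 39 and 28 at 0.58. Within 20000 bp 6 were higher. Genes higher, 11, were 15 to 23 with a run left out, 5 at a limit of 1 and 3 above the lower quartile of level. Genes lower, 2, were 2 to 8, 1 and 0. With a run left out the RevErbalpha median was 5.34 to 5.75, that of RevErbbeta 5.39 to 5.92 and the gene median 0.0375 to 0.16. Centred, Phlda1 was at 0.47 and Plpp2 at 0.465. No paired analysis was possible because each group has 1 sample and no test was made. Depth limits most the BirA library, where 120 sites held under 1 tag, the shallow ChIP-seq runs, where 16, 30 and 28 did, and 5'GRO-seq, where 12 control and 18 tagged values did.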
